A study of Drosophila melanogaster with 4 samples.

Results

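Genes of the mitochondrial ribosome and of mitochondrial protein import were examined in heads of Drosophila melanogaster males that had eaten strychnine. They were chosen by gene symbol: mRpL genes for the large ribosomal subunit, mRpS genes for the small subunit, and Tim, Tom and ttm genes for import. The symbol pattern was read without regard to case, because the annotation spells the tiny tim genes in lower case. A gene was kept when at least 1 of its spots carried a value on replicates 1, 2 and 4, which left 20 genes of the 3995 units measured in this way (2023 named genes and 1972 pairs of duplicate spots without a single symbol). The 20 were 5 large subunit genes, 10 small subunit genes and 5 import genes, read from 42 spots.

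Strychnine is a plant alkaloid that blocks the vertebrate glycine receptor. Treated flies were unmated males of the wild-type strain Oregon-R kept for 7 days on food with 3.33 mg/ml strychnine. Control flies were unmated Oregon-R males kept for the same time on normal food, and both were 3 to 4 days old at the start, in vials of 30. RNA came from pools of heads, and each of 4 two-colour cDNA arrays set a treated pool against a control pool of the same biological replicate. On 2 arrays Cy5 marked the treated RNA, and on the other two Cy3 did.

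Mitochondria keep a small genome that encodes core subunits of the respiratory chain, and a ribosome of their own, related to that of bacteria, translates its messages inside the organelle. All proteins of that ribosome are encoded in the nucleus, made in the cytosol and imported. Precursors are recognised by receptors of the TOM complex in the outer membrane, and small Tim chaperones or the TIM complexes of the inner membrane pass them on. Photoreceptors and neurons, which fill much of the fly head, are rich in mitochondria.

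What the values can show is limited in 3 ways. Replicates 1 and 3 were deposited with identical values at 7643 of 7643 spots measured on both, although their labels give opposite dyes, so they were counted once and are called the shared set. That left 3 distinct sets of values: the shared set, replicate 2 and replicate 4. The labels do not say whether a positive value means more treated RNA or more Cy5, nor the base of the logarithm. The values were read as log2, since the largest of them equals the log2 of a round whole number. Each set was centred on its median over all units (-0.107, -0.366 and -0.631 for the shared set, replicate 2 and replicate 4), and a value below is a centred log2 ratio unless stated otherwise. Because of the unknown direction, a value is called positive or negative rather than raised or lowered. Only spread among these 3 sets enters the p-values, and the number of arrays limits the precision. In the mean of the sets, limma combined each gene's own spread (2 degrees of freedom) with that of all units (5.08 degrees of freedom). A printed SD is the gene's own and is not the spread that its p-value used.

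Ratios give no expression level, so the head label could only be checked by which marker genes passed the authors' filters. Of photoreceptor markers on the slide 5 of 10 had values in the 3 sets, of neuronal markers 1 of 3 and of glial markers 1 of 3, against 7 of 8 for muscle, 4 of 5 for gut, 5 of 8 for fat body and 1 of 6 for testis and accessory gland. In bulk RNA, fewer cells of a type and less RNA per cell cannot be told apart.

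Large subunit genes were measured less completely than the other classes. The slide carried 29 annotated large subunit genes, 19 small subunit genes and 10 import genes, 58 in all. Values in the 3 sets were present for 17.2% of the large subunit genes, 52.6% of the small subunit genes and 50.0% of the import genes, against 29.8% of all 6793 named genes. The 20 large subunit genes with no value on any array were mRpL2, mRpL9, mRpL10, mRpL13, mRpL15, mRpL18, mRpL19, mRpL20, mRpL21, mRpL22, mRpL24, mRpL28, mRpL30, mRpL33, mRpL39, mRpL44, mRpL46, mRpL48, mRpL51 and mRpL54. The 6 small subunit genes without a value were mRpS7, mRpS10, mRpS16, mRpS28, mRpS29 and mRpS30. Among import genes these were Tim17a1, Tom40, the pore of the outer membrane, and ttm2 and ttm3. The authors' filters removed spots that were near background, saturated or uneven, so a missing value does not show that a gene was silent.

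**Figure D1:**
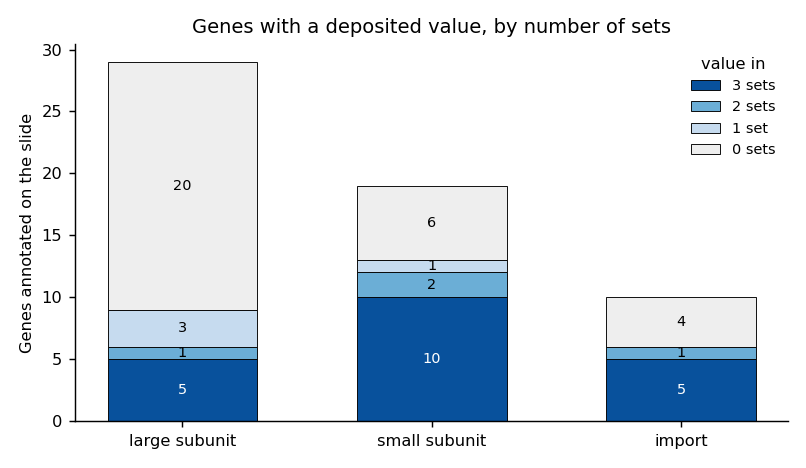
Number of genes annotated on the slide (y axis) in each class, divided by how many of the 3 distinct sets held a value. Of 29 large subunit genes 20 had no value at all, against 6 of 19 small subunit genes and 4 of 10 import genes.

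A further 8 annotated genes had a value in some sets and were not members. mRpL1 was at 0.66 in the shared set and 0.83 on replicate 2. mRpS17 was at -0.23 and -0.14 in the same sets, mRpS26 at -0.048 and -0.33, and the inner membrane gene Tim17a2 at -0.051 and -0.056. On replicate 4 alone, mRpL12 was at -0.38, mRpL38 at -0.0105, mRpL45 at -0.036 and mRpS6 at 0.70. These partial values spanned both signs.

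If the deposited ratios already run as treated over control on each array, the effect of strychnine is the mean of the 3 sets. On that reading 16 of the 20 means were negative and 4 positive, and the median over the members was -0.26, against -0.031 over all units, of which 52.3% were negative. Over the 2023 named genes the median was -0.071, and 55.7% were negative. Fitted with limma over all 3995 units, 2 members lay apart from 0 at an adjusted p (Benjamini-Hochberg) below 0.05: the import chaperone gene Tim10 and the small subunit gene mRpS35, both negative. That is 10% of the members, against 9.94% of all units called in either direction and 1.9% called negative. By the count in either direction, the members were called as often as all units. Among the 2023 named genes 137 were called in the same fit. Members sat on both sides of the distribution of all units, with 5 below its percentile 25, 2 above its percentile 75 and 13 between them. The same sign in all 3 sets was seen for 12 of 20 members, 9 negative and 3 positive, against 55.3% of all units, where 27.1% had the negative sign throughout and 28.2% the positive. With position corrected it was seen for 10 of 20 members, 7 negative and 3 positive. Over all units it was then seen for 45.2%, 877 negative and 928 positive.

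**Figure D2:**
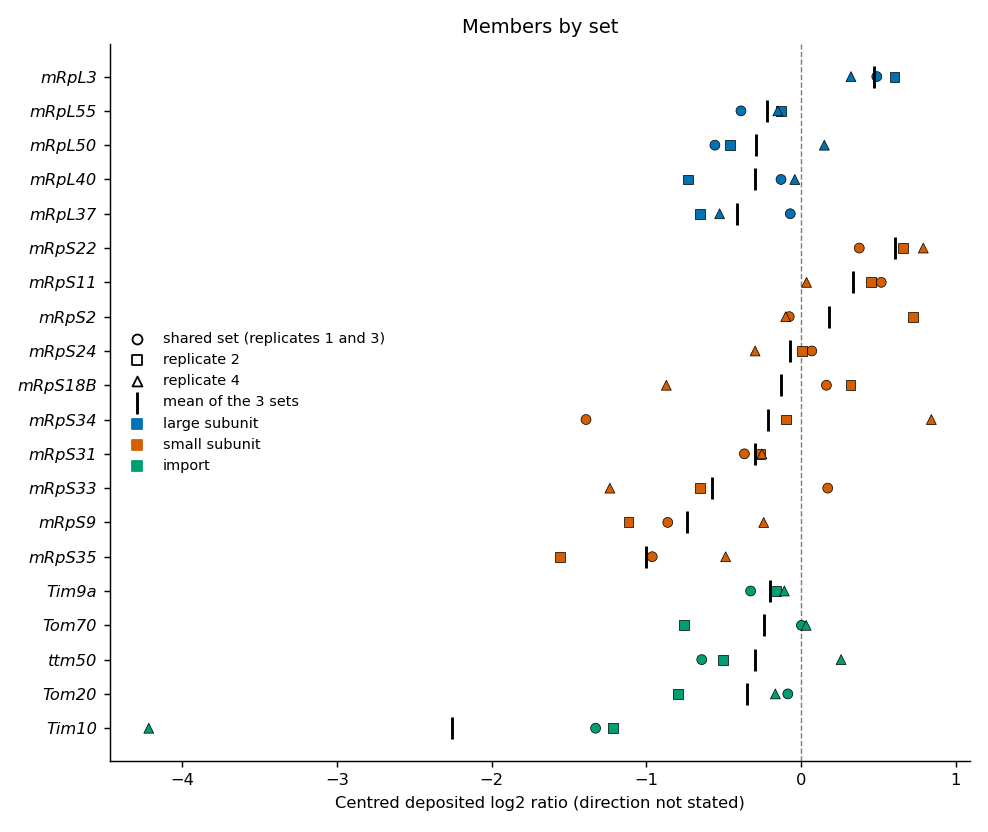
Centred deposited log2 ratio (x axis) of the 20 members (rows, grouped by class and ordered by mean), with 1 symbol per distinct set and a bar for the mean of the 3 sets. Tim10 lies alone at the left, with replicate 4 at -4.22, and mRpS34 is spread from -1.39 to 0.84.

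Import genes were negative in all 5 means, and apart from Tim10 they were close together. Tim10 encodes a small chaperone of the space between the membranes, where with Tim9 it escorts hydrophobic precursors. The shared set gave -1.33, replicate 2 gave -1.22 and replicate 4 gave -4.22, averaging -2.25 ± 1.70 (SD, n = 3 sets; limma adjusted p = 0.0490). Among centred values, before any correction for position on the slide, it was the lowest mean of all 3995 units. All 3 sets lay well below 0, and replicate 4 lay far below the other two. On replicate 4 the duplicate spots of Tim10 read -7.342 and -2.355 as deposited, a difference of 4.99, while on the other sets they differed by 0.104 and 0.029. No other member had duplicate spots over 1 apart on any set, and 3.23% of all spot pairs did on replicate 4. With spots beyond 3 in size left out, only the second spot of Tim10 remained, and the mean was -1.40 (limma adjusted p = 0.0157). Without replicate 4 it was -1.27 (adjusted p = 0.0550), without replicate 2 it was -2.77 (adjusted p = 0.121) and without the shared set -2.72 (adjusted p = 0.103). With a spread estimate robust to outlying genes the adjusted p was 0.118. The sign of the Tim10 mean was negative in each of these fits.

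Tim9a encodes the partner of Tim10 in the small Tim complex. The shared set gave -0.33, replicate 2 gave -0.16 and replicate 4 gave -0.11, averaging -0.20 ± 0.11 (SD, n = 3 sets; limma adjusted p = 0.490). All 3 sets were negative but small, and the range of Tim9a did not overlap that of Tim10.

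The outer membrane receptors gave similar means that rested on 1 set. Tom20, which binds targeting presequences, was at -0.085 in the shared set, -0.79 for replicate 2 and -0.17 for replicate 4. Tom70, which receives precursors with internal signals together with their cytosolic chaperones, was at 0.0030, -0.76 and 0.034 in the same order. For both receptors replicate 2 was low and the other sets were near 0. Their means were -0.35 ± 0.39 and -0.24 ± 0.45 (SD, n = 3 sets; limma adjusted p = 0.299 and 0.493). The fly Tim50 homologue ttm50, which belongs to the inner membrane translocase, was at -0.64, -0.50 and 0.26, so that replicate 4 opposed the other sets. Its mean was -0.29 ± 0.49 (SD, n = 3 sets; adjusted p = 0.412).

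In the large subunit 4 of 5 means were negative and none passed the test. mRpL3, a relative of a bacterial protein near the catalytic centre, was the positive one, at 0.49 in the shared set, 0.605 for replicate 2 and 0.32 for replicate 4. Its mean was 0.47 ± 0.14 (SD, n = 3 sets; limma adjusted p = 0.133), a size of 1.39-fold, with 3 of 3 sets positive and its duplicate spots within 0.085 of each other. The other four encode proteins without a bacterial counterpart. mRpL37 was at -0.069, -0.65 and -0.53, and mRpL40 at -0.13, -0.73 and -0.040, both lowest on replicate 2. mRpL55 was at -0.39, -0.13 and -0.15, and mRpL50 at -0.56, -0.46 and 0.15. Their means lay between -0.42 and -0.22, with adjusted p from 0.202 to 0.440, and mRpL50 changed sign on replicate 4.

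In the small subunit the means of the 10 genes ran from -1.0025 to 0.61, 7 negative and 3 positive. mRpS35, a protein of the mitochondrial small subunit without a bacterial counterpart, was at -0.96 in the shared set, -1.56 for replicate 2 and -0.49 for replicate 4. All 3 sets were negative, and the mean was -1.0025 ± 0.54 (SD, n = 3 sets; limma adjusted p = 0.0499), a size of 2.00-fold. The call lies at the threshold, and over the settings tried its adjusted p lay between 0.0252 and 0.537. It was lost without any 1 set, at -1.02 without the shared set (adjusted p = 0.121), -0.72 without replicate 2 (adjusted p = 0.231) and -1.26 without replicate 4 (adjusted p = 0.0553). mRpS9, a relative of a conserved bacterial protein, followed at -0.86, -1.115 and -0.24, averaging -0.74 ± 0.45 (SD, n = 3 sets; adjusted p = 0.0758). On the positive side mRpS22, known in humans from a respiratory chain deficiency, was at 0.38, 0.66 and 0.79. Its mean was 0.61 ± 0.21 (SD, n = 3 sets; adjusted p = 0.0817). mRpS11, another relative of a bacterial protein, was at 0.52, 0.455 and 0.036, a mean of 0.34. Both were positive in 3 of 3 sets.

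Several small subunit genes gave values that disagreed between sets. mRpS34 was at -1.39 in the shared set, -0.099 for replicate 2 and 0.84 for replicate 4, and its duplicate spots lay within 0.308 on each set. Its SD of 1.12 exceeded that of 97.5% of all units, and the mean of -0.22 (adjusted p = 0.724) therefore averages opposite values. mRpS33 ran the other way, at 0.17, -0.655 and -1.24, with a mean of -0.57 (adjusted p = 0.200). mRpS18B, 1 of the fly's S18 family, was at 0.16, 0.32 and -0.87, and mRpS2 at -0.076, 0.72 and -0.0985. mRpS24 lay near 0 in all sets, between -0.30 and 0.070. Over 1 log2 unit separated the sets of 5 members: Tim10, mRpS34, mRpS33, mRpS18B and mRpS35.

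mRpS31 was the 1 member read from separate cDNA spots in different places on the slide. The average of its spots was -0.37, -0.265 and -0.25, with an SD of only 0.062 (n = 3 sets). The pair of spots in one place read -0.1995, -0.36 and 0.32, whereas the other pair read -0.53, -0.17 and -0.82. On replicate 4 the spot pairs were of opposite sign, so the small SD of the average did not describe either cDNA. Their means over the sets were -0.082 and -0.51.

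Compared as classes, the median of the means was -0.29 for the large subunit, -0.17 for the small subunit and -0.29 for import. Between sets the class medians had SDs of 0.22, 0.13 and 0.33 (n = 3 sets). The large subunit median was -0.13, -0.46 and -0.040 in the shared set, replicate 2 and replicate 4, the small subunit median was -0.0030, -0.046 and -0.25, and the import median was -0.33, -0.76 and -0.11. The difference of large minus small subunit medians was -0.126, -0.41 and 0.21 by set, -0.11 ± 0.31 over sets (SD, n = 3 sets). Large minus import was positive in 3 of 3 sets and came to 0.19 ± 0.12, and small minus import to 0.30 ± 0.43 (SD, n = 3 sets). Taken instead between the medians of the means, the differences were -0.12 for large minus small, 0.0072 for large minus import and 0.12 for small minus import. Import had the lowest median of the 3 classes in the shared set and on replicate 2, and the small subunit had it on replicate 4. No test was run on these class medians, because the members were chosen with earlier results of these data known.

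**Figure D3:**
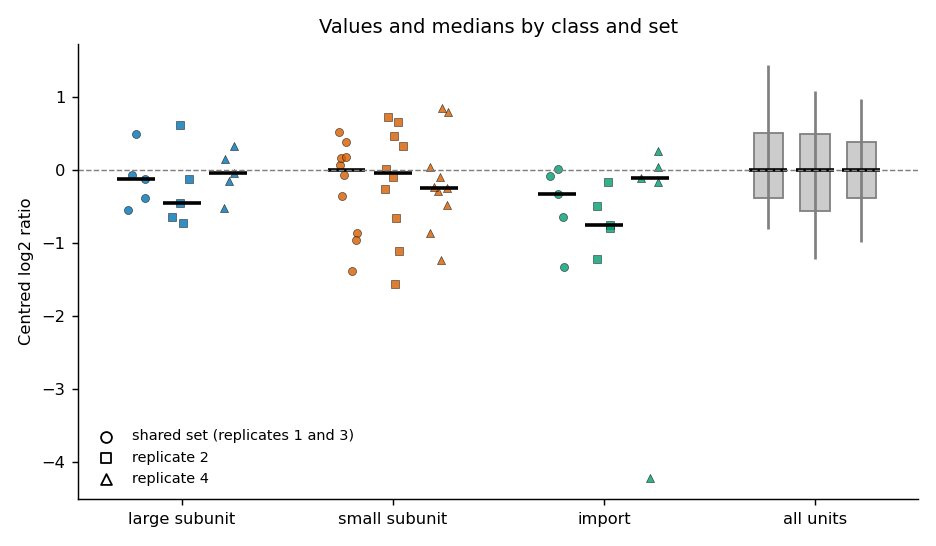
Centred log2 ratio (y axis) of each member by class, with 1 column of points per set and a bar at the class median. Boxes for all units run from percentile 25 to 75, lines from percentile 5 to 95, and the bar marks the median of 0. Class medians change order between sets.

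A division of the ribosomal proteins by descent, made after their values had been seen, was also described. The 5 genes with a bacterial counterpart (mRpL3, mRpS2, mRpS9, mRpS11 and mRpS24) had a median of 0.18, with 3 positive and 2 negative. The 9 genes for proteins found only in the mitochondrial ribosome had a median of -0.29, with 1 positive and 8 negative. mRpS18B, with a mean of -0.13, was left unclassed. Placed with the genes that have a bacterial counterpart, it would lower their median. By set the medians were 0.070, 0.455 and -0.0985 for genes with a bacterial counterpart, against -0.37, -0.46 and -0.15 for the mitochondrial kind. The order was the same in each set, which is no test of a division made after seeing those sets. The ranges of single genes overlapped, from -0.74 to 0.47 and from -1.0025 to 0.61.

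Position on the slide moved with these values. By spot number the slide was read as 48 square blocks, and the members, by their first spots, lay in 16 of them. The block around mRpS35 had a median of -0.705 as the mean of the 3 sets, the lowest around any member, and that around mRpS9 had -0.42. The block of Tim10 was at -0.25, and that of mRpS34 was the highest at 0.598. Across the 20 members, the mean of a gene and the median of its block had a Pearson's r of 0.468 and a Spearman's rho of 0.471. These points share arrays and in part blocks, and the figure is a description.

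After each block's median and a smooth trend over rows and columns within the block had been removed, limma called 0 of 3995 units (0%), with 823 at an unadjusted p under 0.05, and none of the members. The mean of mRpS35 was then -0.19 ± 0.28 (SD, n = 3 sets; adjusted p = 0.537) and that of mRpS9 was -0.32 ± 0.41 (adjusted p = 0.408). Tim10 stayed at -1.86 ± 1.72 (SD, n = 3 sets; adjusted p = 0.202), with 3 of 3 sets negative. Over all units the lowest mean was then -2.23, so Tim10 was the lowest among named genes only. mRpS22 was at 0.26 and mRpL3 at 0.34. For 13 of 20 members the mean became smaller in size. For the other 7 it became larger, among them Tom70 at -0.57, mRpS34 at -0.67 and mRpL37 at -0.76. mRpL55, mRpL50 and mRpS18B became positive, at 0.19, 0.070 and 0.0041. The large subunit median turned to 0.070, while those of the small subunit and import were -0.16 and -0.35. The medians by descent were 0.15 for genes with a bacterial counterpart (3 positive, 2 negative) and -0.19 for the mitochondrial kind (3 positive, 6 negative).

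**Figure D4:**
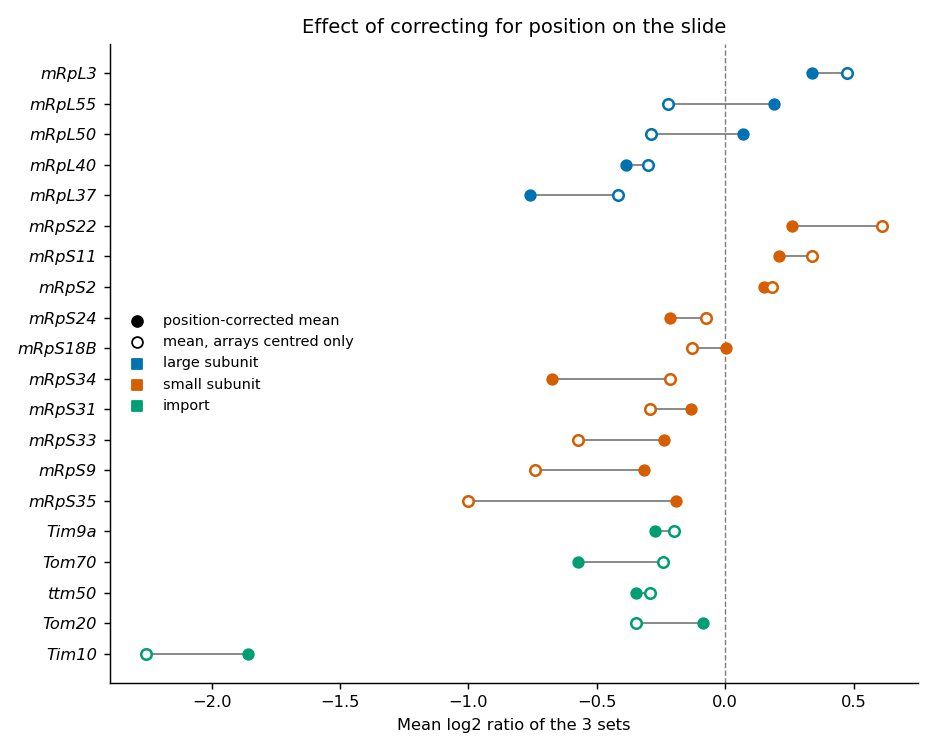
Mean log2 ratio of the 3 sets (x axis) for each member (rows) after correction for position on the slide (filled) and with arrays centred only (open). mRpS35 moved most, to -0.19 from a centred-only mean of -1.0025, while Tim10 was at -1.86.

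If a positive value instead means more Cy5, the effect of strychnine is the part that turns with the dye, the difference of replicate 2 minus replicate 4 divided by 2. The shared set, whose labels disagree, was given no treatment term, so any treatment effect it carries counts as spread and can lower the number of calls. Read as Cy5 it gave 2 calls among all units, and read as Cy3 it gave 1. This dye-turned log2 ratio passed the test (limma, centred sets) for 0 of 3995 units (0%), with 166 at an unadjusted p under 0.05, and for 0 of 20 members, with 1 at an unadjusted p under 0.05. That member was Tim10, at 1.501 ± 0.418 (SE; unadjusted p = 0.0137, adjusted p = 0.957), opposite in sign to its mean over the sets. With its outlying spot left out the dye-turned value was 0.26. It was 0.78 with the shared set read as Cy3 and 0.76 with all 4 columns as labelled, so that its size was not settled and no direction is drawn from it.

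The remaining members lay between -0.54 for mRpS35 (adjusted p = 0.957) and 0.595 for mRpS18B (adjusted p = 0.957). By this measure 12 members were negative and 8 positive, with a median of -0.045. Over all units the median was -0.032, and 2174 of 3995 were negative. The class medians were -0.064 for the large subunit, 0.0725 for the small subunit and -0.31 for import, where 4 of 5 genes were negative. With position corrected the import values were -0.31 for Tom70, -0.29 for ttm50, -0.068 for Tim9a, 0.0085 for Tom20 and 1.57 for Tim10. mRpS35 and mRpS9 were negative under both readings, with centred dye-turned values of -0.54 and -0.44. So were Tim9a, Tom20, Tom70, ttm50, mRpL37, mRpL40, mRpL50, mRpS31 and mRpS34. Both readings use the same values of replicates 2 and 4, so a shared sign is no separate evidence. Replicate 2 alone holds treated RNA in Cy5 and replicate 4 alone in Cy3 among the distinct sets with settled dyes, so this contrast sets 1 array against 1.

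**Figure D5:**
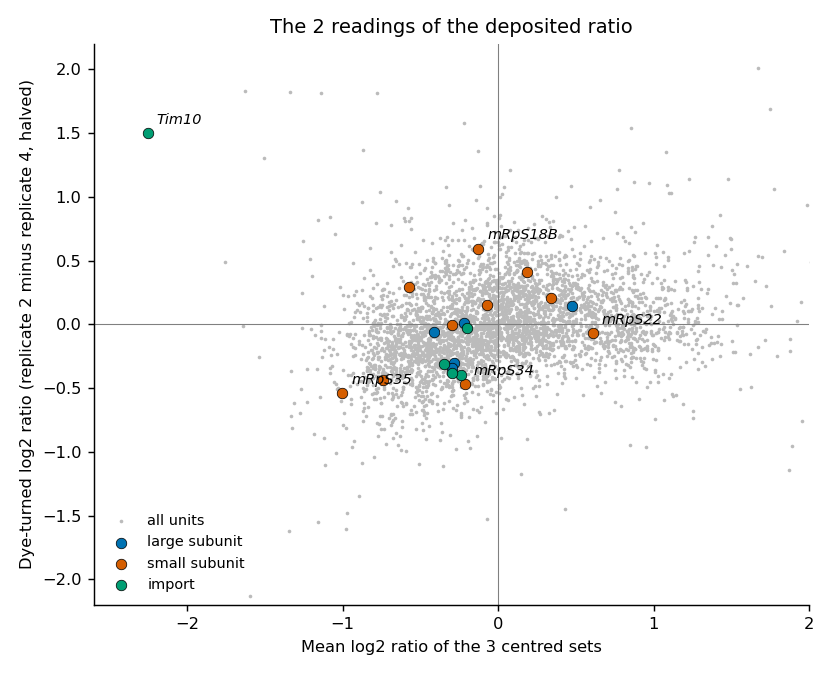
Dye-turned log2 ratio (y axis) against the mean of the 3 centred sets (x axis) for all units (grey) and the members by class (colours), where 21 units lie outside the plotted range. Tim10 stands apart at -2.25 and 1.501, and the other members lie within the cloud.

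Genes that serve the same organelle were read from companion lists, chosen with earlier results of these data known. Of 5 measured genes of the import motor, membrane assembly and processing list, 2 were called positive and 0 negative in the mean of the sets, where 8.04% of all units were called positive. These were Hsc70-5, the matrix chaperone that drives import, at 1.02, 0.77 and 1.03 in the 3 sets (mean 0.94 ± 0.15, SD, n = 3 sets; limma adjusted p = 0.0425), and Hsp60C, a chaperonin gene, at 1.38, 0.55 and 1.11 (mean 1.02 ± 0.42; adjusted p = 0.0457). Opa1, of inner membrane fusion, was at 0.65 (adjusted p = 0.0675) and the chaperone Trap1 at 0.20 (adjusted p = 0.543). Over the list the median was 0.65, or 0.35 with position corrected, under which neither call remained (adjusted p = 0.172 for Hsc70-5 and 0.293 for Hsp60C). In the dye-turned contrast none of the 5 was called, and the signs of Hsc70-5 at -0.13 and Hsp60C at -0.28 were opposite to those of their means.

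Of 6 measured genes of mitochondrial gene expression, 1 was called negative and 0 positive, where 1.9% of all units were called negative and 8.04% positive. Their median was -0.32. The called gene was Lon, a protease of the matrix, at -1.06, -0.975 and -0.82 (mean -0.95 ± 0.12, SD, n = 3 sets; limma adjusted p = 0.0424), whose mean with position corrected was -0.305 (adjusted p = 0.420). GluRS-m, ValRS-m and mEFTu2, which load transfer RNA or elongate the chain on the mitochondrial ribosome, were at -0.53, 0.396 and 0.41, none past the test. With position corrected the median of these 6 was -0.096.

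Beside the members' median of -0.26, that of 25 oxidative phosphorylation genes was -0.33 and that of 14 cytoplasmic ribosomal protein genes was -0.079. The share with 1 sign in all 3 sets was 60.0% for the members, 60.0% for the oxidative phosphorylation genes and 35.7% for the cytoplasmic ribosomal proteins. With position corrected these shares were 50.0%, 40.0% and 57.1%, a different order, against 45.2% of all units. The medians were then -0.20, -0.16 and -0.057. Muscle is rich in mitochondria, and 7 muscle markers had a median of -0.29 over a range from -0.80 to 0.32, with 3 negative and 3 positive in all sets. With position corrected their median was -0.022, and their part in the members' values was not tested. The 5 photoreceptor markers had a median of -0.027 over a range from -0.45 to 0.75, and none was called. Of 4 gut markers 2 were called positive, yip7 at 1.55 and Jon65Aiii at 1.34, where 8.04% of all units were called positive. Jon66Cii, negative in all sets, was at -0.59 and Jon65Aiv at -0.28, and the median of the 4 was 0.53. With position corrected no unit was called, and yip7 and Jon65Aiii were at 0.87 and 0.69 (limma adjusted p = 0.202 and 0.132). Of 5 fat body markers Fbp2 was called positive at 0.76, and the median was -0.13. The fat body marker Yp2 was at -4.15 on replicate 4, but at -0.27 in the shared set and -0.48 for replicate 2. The other fat body markers were spread on replicate 4, with Fbp2 at 0.78, Lsp2 at 0.44, Mtp at -0.0795 and apolpp at -1.58. The 1 measured testis marker, Mst77F, was called positive at 0.85, the 1 glial marker, Gs2, was at -0.73 with 3 of 3 sets negative, and the 1 neuronal marker, nSyb, was at -0.35, the last 2 not called. The part of these markers in the members' values was not tested either.

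Between sets, the members ranked alike in part. Across the 20 members Spearman's rho of the shared set was 0.544 with replicate 2 and 0.0707 with replicate 4, and that of replicate 2 with replicate 4 was 0.460. Over all units the corresponding values were 0.666, 0.431 and 0.537. Genes on the same arrays are not independent, and these coefficients are descriptions.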

How the data were processed

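Log2 ratios of 4 two-colour cDNA arrays were used. Per the series' design text, the authors quantified images with GenePix Pro 6.0, normalized the ratios with Acuity 4.0, filtered spots on flags, saturation, uniformity and signal to noise (3 or more), and tested them with SAM 3.0. Base, centring and direction of the deposited log2 values, and any genome build, were not given in the sources used, so no coordinates are given. As deposited, columns had medians of -0.121, -0.379, -0.179 and -0.621 and 9356, 8894, 7647 and 9725 values for replicates 1 to 4; signal per channel was not used.

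Symbols came from the platform annotation, and all 58 matched RefSeq by gene ID. Complete spots were averaged per gene or unnamed pair and centred. Means and dye-turned contrasts were tested with limma 3.58.1 in R 4.3.3 (two-sided, Benjamini-Hochberg over 3995 units). Position was corrected per block with a robust loess (span 0.4). Every member is named; companion genes were named by smallest unadjusted p, up to 4 a list. Members and lists were chosen with earlier results of these data known. Alternatives covered centring, scaling, position, required values, extreme spots, duplicates, genes tested, replicates, threshold, spread and dye reading; descent groups, block medians, all-spot centring and leaving out ttm50 were chosen after seeing the data. On simulated data, 91.0% of 100 units changed by 1 log2 unit were recovered in the mean of the sets and 84.0% in the dye-turned contrast. The simulated noise was normal, independent and of 1 common SD for all units, without position effects or outlying spots. Another 100 units were changed by 2 log2 units in the same data. These shares therefore check the code and do not give the power of the tests on the real arrays.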

Additional observations from a re-analysis of the deposited data

How the results depend on the processing

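The count of 397 units in the mean of the sets became 0 as deposited, with scaling or with the position correction, 10 with block medians subtracted, 663 without spots beyond 3, 678 without discordant duplicates, 207 over named genes and 1044 at a threshold of 0.10. Of the 397 calls 80.9% were positive, against 69.2% without spots beyond 3, 66.1% without discordant duplicates and 70.0% over named genes. Without a replicate it lay between 0 and 397: 1 without the shared set, 0 without replicate 2 and 32 without replicate 4. The 2 members called became 0 as deposited, with scaling, with the position correction or with block medians. Without discordant duplicates Tim10 was dropped untested, and 1 of the 19 members left, mRpS35, was called. With robust spread 1 was called, mRpS35, and Tim10 was not (limma adjusted p = 0.118). The count was 4 at 0.10 (with mRpS9 and mRpS22), and 0 to 2 without a replicate. Values as deposited shift the median of all units to -0.399. Dye-turned calls among all units were 14 as deposited, 2 with the shared set read as Cy5 and 1 read as Cy3, none of them members.

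Class medians as deposited were -0.66 (large), -0.54 (small) and -0.66 (import). The large median was 0.070 with the position correction and 0.14 with block medians, large minus small 0.23 and 0.22, and large minus import 0.42 and 0.61. Without a replicate, large minus import lay between -0.012 and 0.209, large minus small between -0.26 and 0.0885 and small minus import between -0.10 and 0.34, so each took both signs, and the medians lay between -0.36 and -0.15 (large), -0.29 and -0.10 (small) and -0.44 and -0.19 (import). Leaving out ttm50 gave an import median of -0.29.

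Signs of uncalled means turned for mRpS11 (-0.031) and mRpS2 (-0.18) as deposited, for mRpS18B, mRpL50 and mRpL55 with the position correction (0.0041, 0.070, 0.19) and with block medians (0.0145, 0.14, 0.205). Leaving out a replicate gave -0.15 to 0.038 for mRpS24, -0.74 to 0.372 for mRpS34, -0.087 to 0.32 for mRpS2, -0.38 to 0.018 for Tom70 and -0.353 to 0.24 for mRpS18B. Uncalled dye-turned values turned sign as deposited for mRpS22 (0.0665), mRpL37 (0.069), Tim9a (0.105) and mRpS31 (0.126), and over named genes for Tim9a (0.0005) and mRpS31 (0.0215). With scaling mRpL37 was at 0.033 and mRpS31 at 0.036. With the position correction Tom20 was at 0.0085, mRpS22 at 0.025 and mRpL50 at 0.069. With block medians Tim9a was at 0.017. mRpS31 was at 0.0050 with centring on all spots, 0.0081 with all 4 columns and 0.016 without replicate 1. With the shared set read as Cy3, mRpS33 was at -0.062, mRpS31 at 0.022, Tim9a at 0.027, mRpS22 at 0.0375 and mRpS34 at 0.087; read as Cy5, mRpL55 was at -0.054 and mRpL37 at 0.0825. The causes were not tested. Without replicate 2 or 4, or both 1 and 3, the dye-turned contrast has no residual degrees of freedom and was not run. No paired analysis was possible because each ratio already sets the treated against the control pool of its replicate, so the pairing lies within the ratios and no further block remains.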
